A study of Homo sapiens with 4 samples.

Results

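The genes described here are 4 response genes of fibroblast growth factor (FGF) signaling, ETV4, ETV5, SPRY4 and DUSP6, together with FGFBP3, a gene for a secreted FGF-binding protein. They were given by name, and all 5 were found among the 1646 genes that could be identified in the data. FGFs are secreted ligands that are held by heparan sulfate outside the cell and act through receptor tyrosine kinases, mainly by the RAS and MAP kinase cascade. The cascade switches on the ETS factors ETV4 and ETV5 and also its own brakes, so the mRNA of these genes is widely used as a readout of the signal. In the embryo FGF from the isthmus patterns the midbrain and the anterior hindbrain, from which the cerebellum and its rhombic lip arise.

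The libraries were made by translating ribosome affinity purification (TRAP), in which a GFP antibody captures tagged ribosomes with their mRNA. All cells belonged to the ATOH1-EGFP-L10a line, made from RUES2 human embryonic stem cells, in which a lentiviral human ATOH1 enhancer drives the tagged ribosomal protein L10a in ATOH1-expressing progenitors. All were harvested at day in vitro (DIV) 28 and had received SB431542 and LDN-193189 on days 0 to 7, CHIR99021 on days 1 to 11, BMP7 on days 7 to 15, BDNF on days 11 to 28 and FGF2 on days 1 to 28. Every group was therefore kept in FGF2 until harvest, and no library without FGF2 was analysed here. Before differentiation the stem cells had been maintained with 20 ng/ml bFGF, another name for FGF2. The paper's methods also give puromycin for transgenic lines until DIV28, and cycloheximide shortly before the cells were homogenized. The tag marks cells by the activity of this enhancer, and which selected clone of the line was used is not given in the sources used here. There were 3 immunoprecipitates (IPs), from 3 independent differentiation experiments, and 1 input library, with between 34603230 and 41173019 estimated reads each.

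The labels and the deposited files disagree on which library is the input. The sample labelled input bears a tag in its title that is found only in the file name of a sample labelled IP, and that file was taken as the input here. With this library as input 1694 of 1998 genes in the authors' table could be recovered, and with the other 3 libraries in turn 6, 1 and 2. For those 3 only 4, 3 and 2 genes were found to set the scale, against 362 here, so their scale was not refined. The recovery concerns which library the authors' fold changes took as input, and not what that library holds. ATOH1 itself had 935, 1330 and 1228 estimated reads in the 3 IPs and 7 in the library taken as input. That library thus held hardly any ATOH1 RNA, and fold changes of IP over input are relative to it. How far it stands for the whole cultures behind the IPs was not tested. If the labels set the input instead, the direction of all 5 genes is turned around, at log2 fold changes of 1.58 for ETV4, 1.60 for ETV5, 2.31 for SPRY4, 0.93 for DUSP6 and -0.48 for FGFBP3, and none passes edgeR's quasi-likelihood test (adjusted p = 1 for each).

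ETV4, ETV5, SPRY4 and DUSP6 were all below the input in the ATOH1-TRAP IPs, by 5.80-fold for DUSP6 to 14.5-fold for SPRY4 in TPM, Salmon’s measure of level, which is scaled to transcript length and library size. FGFBP3 went the other way and was 4.25 times higher in the IPs. All 3 IPs lay on the same side of the input for each of the 5 genes, and no IP value overlapped the input. In edgeR's quasi-likelihood test over 43824 genes and transcripts, 1.49% were called lower and 2.31% higher in the IPs at a Benjamini-Hochberg adjusted p under 0.05. By log2 fold change alone, 14.6% of all genes and transcripts tested stood above FGFBP3. The share below each of the 4 lower genes ran from 4.95% for SPRY4 to 8.79% for DUSP6. Among the identified genes alone 27.0% were called lower and 29.3% higher. All identified genes come from the rows of the authors' table with the smallest p on these same libraries, so the calls of the 5 genes are a description and not independent evidence. The IPs hold RNA captured on tagged ribosomes, so fewer cells of a type, less RNA per cell and less RNA on ribosomes cannot be told apart. Nor can these be told apart from a difference between the single input and the cultures behind the IPs, which was not tested.

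**Figure D1:**
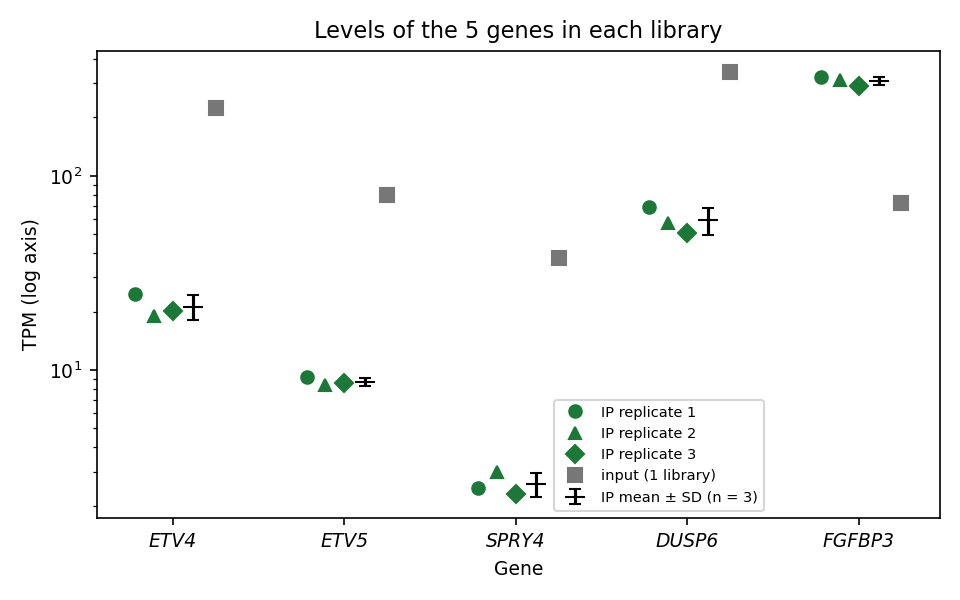
TPM on a log axis for the 5 genes, with the 3 IP replicates as green symbols, their mean ± SD (n = 3) as black bars and the single input library as a grey square. ETV4, ETV5, SPRY4 and DUSP6 lie below the input in all 3 IPs and FGFBP3 lies above it.

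ETV4 is a transcription factor of the PEA3 subfamily of ETS factors and lies at chr17:41605212-41656988 on the minus strand (GRCh37). In the IPs ETV4 was at 24.8, 18.9 and 20.0 TPM, against 223 TPM for the input. The mean of the IPs was 21.2 ± 3.11 TPM (SD, n = 3), and the TPM ratio of each IP to the input was 0.111, 0.0848 and 0.0897. On the scale of counts, the log2 fold change of IP over input was -2.99 with a standard error of 0.14 (adjusted p = 0.0161, edgeR). The input value rests on 7063 reads, whose 95% Poisson interval of 6899 to 7230 reads places the mean TPM ratio of 0.0952 between 0.0930 and 0.0974. Such intervals hold the counting error of the input reads alone and leave out the spread between IPs, whose ratios all lay outside the one for ETV4. They can also be too narrow, because no molecular identifiers were used and reads can be copies of one molecule.

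ETV5, the close relative of ETV4 at chr3:185764103-185828107 on the minus strand, was the most even of the lower genes between IPs. Its level was 9.16, 8.32 and 8.60 TPM in the IPs, against 79.6 TPM in the input. The IPs differed from each other by a coefficient of variation of 4.90%, while the input stood 9.16 times above their mean. The log2 fold change was -2.86 (standard error 0.12), with an adjusted p of 0.0161 in edgeR's test. ETV5 stood at 0.370, 0.440 and 0.430 of the ETV4 level in the IPs and at 0.357 in the input, so in TPM both factors kept nearly the same proportion in the 4 libraries.

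SPRY4, at chr5:141689992-141706020 on the minus strand, encodes a Sprouty protein, a feedback inhibitor of receptor tyrosine kinase signaling. SPRY4 was the lowest of the 5 genes in each library, at 2.46, 2.98 and 2.30 TPM in the IPs, against 37.5 TPM in the input. Behind these levels were 351, 451 and 369 reads in the IPs, against 4985 in the input. It also had the largest difference of the 5, the log2 fold change being -3.53 ± 0.19 (standard error; edgeR adjusted p = 0.0178). In TPM, replicate 2 was the highest IP for SPRY4, whereas replicate 1 was the highest for the other 4 genes.

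DUSP6, at chr12:89741012-89746278 on the minus strand, encodes a cytoplasmic phosphatase that inactivates MAP kinases at the end of the cascade. DUSP6 was at 69.1, 57.3 and 50.7 TPM in the IPs, against 342 TPM in the input, the highest level of the 5 genes there. The difference was the smallest of the 4 lower genes, at a log2 fold change of -2.22 with a standard error of 0.16 (adjusted p = 0.0233, edgeR). The TPM ratio of IP to input was 0.202, 0.168 and 0.148, all above the ratios of ETV4, ETV5 and SPRY4, which ran from 0.0614 to 0.115. These ratios share the one input value, and the difference between genes was not tested.

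FGFBP3, at chr10:93666341-93669243 on the minus strand, encodes a secreted carrier that binds FGFs and releases them from heparan sulfate. Its level was 323, 310.2 and 291 TPM in the IPs, against 72.5 TPM in the input. The IPs averaged 308 ± 16.1 TPM (SD, n = 3) and the TPM ratio 4.25 ± 0.222 (SD, n = 3), with a counting interval of 4.13 to 4.38 from the 4741 input reads. The log2 fold change was 2.42 (standard error 0.12, edgeR adjusted p = 0.0161).

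The order of the 5 genes in TPM was the same in each IP, with FGFBP3 first, then DUSP6, ETV4, ETV5 and SPRY4, and no neighbours in this order overlapped between IPs. In the input the order was DUSP6, ETV4, ETV5, FGFBP3 and SPRY4. FGFBP3 thus stood at 4.68, 5.41 and 5.75 times the TPM of DUSP6 in the IPs and at 0.212 times in the input. Summed, the 4 lower genes made up 105.5, 87.5 and 81.6 TPM in the IPs, against 682 TPM in the input. TPM and CPM, counts scaled to library size with TMM factors but not to length, differ in their zero point, since CPM ratios were higher than TPM ratios by a median of 1.25-fold over all genes and transcripts tested. On the CPM scale the mean ratio of IP to input was 0.126 for ETV4, 0.138 for ETV5, 0.0866 for SPRY4, 0.214 for DUSP6 and 5.36 for FGFBP3, in the same directions.

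The files hold single transcripts, so the split of each gene could be followed, with the reservation that Salmon divides reads between overlapping transcripts by a model. FGFBP3 has 1 transcript, and ETV5 and SPRY4 have 2 each, of which uc003fpz.3 and uc003lml.2 held most of the TPM in every library, at 87.9 to 100% for ETV5 and 83.8 to 100% for SPRY4. For these dominant transcripts alone the log2 fold changes were -2.86 and -3.35 (adjusted p = 0.0188 for each in edgeR's test over 46762 transcripts, of which 1.1% were lower and 1.95% higher). ETV4 was spread over 8 transcripts, and their estimates moved between replicates far more than their sum. The transcript uc010wii.2 held 14.6% and 12.9% of ETV4 TPM in IP replicates 2 and 3 and close to 0% in replicate 1 and in the input. The most counted ETV4 transcript, uc002idv.4, stood at -2.76 on the log2 scale (standard error 0.3, edgeR adjusted p = 0.04).

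The 2 transcripts of DUSP6 had log2 fold changes of opposite sign. They are 2820 and 2382 nucleotides long, and their difference of 438 nucleotides equals the length of the coding exon 2 of DUSP6 (chr12:89744365-89744802, GRCh37), which 1 of the 2 GENCODE forms compared here skips. The 2 GENCODE forms also differ in the length of their first exon (862 and 766 nucleotides) and last exon (2327 and 1193 nucleotides). Their full lengths are not those of the transcripts in the files. The files do not pair the transcript names with these forms, so the match rests on the length of exon 2 alone. The junctions that tell both forms apart are shown because a single read across them identifies the form, with the last 20 bases of the first exon in lower case and the first 20 bases of the next exon in capitals, from GENCODE transcripts on GRCh37:
Form with exon 2, exon 1 to exon 2: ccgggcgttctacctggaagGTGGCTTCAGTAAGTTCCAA
Form with exon 2, exon 2 to exon 3: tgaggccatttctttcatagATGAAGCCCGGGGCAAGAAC
Form without exon 2, exon 1 to exon 3: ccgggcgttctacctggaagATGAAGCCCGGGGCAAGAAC
The longer transcript, uc001tay.3, was at 67.5, 51.5 and 45.3 TPM in the IPs, against 342 TPM in the input. It fell by 2.31 on the log2 scale (standard error 0.2, edgeR adjusted p = 0.0329). The shorter one, uc001taz.3, was at 1.57, 5.81 and 5.37 TPM in the IPs, against 0.311 TPM in the input, and so lay above the input in all 3. Its share of DUSP6 TPM was 2.27%, 10.1% and 10.6% in the IPs, against 0.0908% in the input. The log2 fold change of the shorter transcript was 4.10 with a standard error of 1.19, and it did not pass the test (adjusted p = 0.172, edgeR), with only 18.7 estimated reads in the input.

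**Figure D2:**
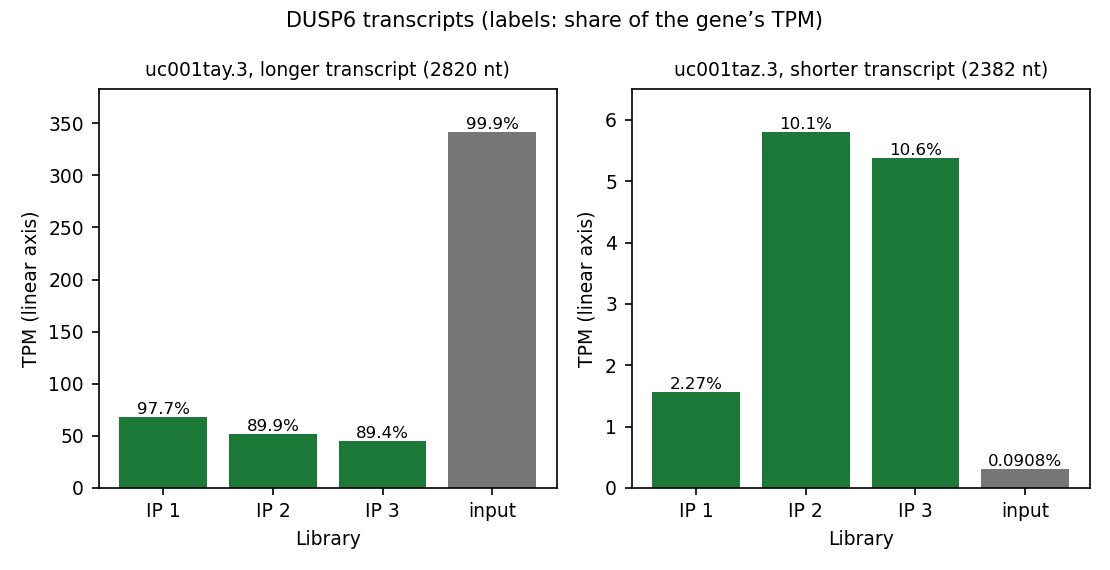
TPM of the 2 DUSP6 transcripts on linear axes that start at 0, with the 3 IPs in green, the input in grey and each transcript's share of the gene's TPM above its bar. The longer transcript falls from 342 TPM in the input to between 45.3 and 67.5 TPM in the IPs, while the shorter one lies between 1.57 and 5.81 TPM in the IPs, against 0.311 TPM in the input.

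The libraries were prepared with a kit that does not mark strand, so reads from overlapping genes on the other strand cannot be separated. Exons of another annotated gene cover 28.6% of the exonic bases of DUSP6 and 10.6% of those of FGFBP3, both on the opposite strand. For ETV4 the overlap, with DHX8, is 1.94% and for ETV5, with DGKG on the same strand, 2.84%. No exon of another gene overlaps SPRY4. How much these genes add to the values was not tested.

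ETS factors bind a GGAA core, and promoter sequence was at hand for SPRY4, DUSP6 and FGFBP3, of which the 2 genes that were lower together in the IPs are printed. The 250 bases before the RefSeq gene start (GRCh38.p14) are given 5′ to 3′ on the minus strand, with matches to AGGAAG, a PEA3-type motif, on either strand in capitals:
DUSP6, chr12:89352502-89352751: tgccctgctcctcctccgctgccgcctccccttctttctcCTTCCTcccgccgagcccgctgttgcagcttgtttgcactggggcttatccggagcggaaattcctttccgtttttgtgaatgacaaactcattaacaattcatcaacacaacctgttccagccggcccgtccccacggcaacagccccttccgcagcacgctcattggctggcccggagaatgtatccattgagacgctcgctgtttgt
SPRY4, chr5:142324248-142324497: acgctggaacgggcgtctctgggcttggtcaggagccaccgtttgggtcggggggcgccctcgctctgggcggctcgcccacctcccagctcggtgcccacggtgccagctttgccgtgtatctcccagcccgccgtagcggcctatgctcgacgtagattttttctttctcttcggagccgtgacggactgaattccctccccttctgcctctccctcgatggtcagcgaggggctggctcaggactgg
The DUSP6 window holds 1 match, on the opposite strand, and those of SPRY4 and FGFBP3 hold 0. Of 35116 promoter windows of this length 28.7% hold AGGAAG. The longer ETS consensus CCGGAAG was in 8.52% of the windows and in none of these 3. The absence of a match says only that these letters are not in the window.

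For the pathway as a whole, 89 genes were listed by role, and 15 of them, the 5 genes included, could be identified. Of these 15 genes 9 were lower in the IPs and 3 higher, and 3 did not pass edgeR's test. Outside the 5 genes 10 were identified, of which 5 were lower, 2 higher and 3 did not pass, where 27.0% of all identified genes were called lower and 29.3% higher, and 1.49% and 2.31% of all genes and transcripts tested. The median log2 fold change was -1.45 over the 15 and -0.98 over the 10, beside 0.10 over all genes and transcripts tested and 0.80 over all identified genes. The 7 receptors and co-receptors of the list were not analysed here.

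Of 20 listed targets and feedback genes, 5 were identified, the 4 above and IL17RD, which encodes the membrane inhibitor SEF. All 5 were called lower, as were 27.0% of all identified genes and 1.49% of all genes and transcripts tested. The other listed targets were not analysed here. IL17RD was at 2.62, 2.53 and 2.37 TPM in the IPs, against 20.0 TPM in the input, with no overlap (log2 fold change -2.11, standard error 0.15, edgeR adjusted p = 0.0226). The lower genes therefore hold several kinds of brake, a Sprouty protein, a MAP kinase phosphatase and SEF.

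All 3 identified ligand genes of 22 listed had positive log2 fold changes. FGF12, an intracellular member of the family that acts on sodium channels rather than as a secreted signal, was at 8.23, 6.87 and 9.19 TPM in the IPs, against 2.33 TPM in the input (log2 fold change 2.12, edgeR adjusted p = 0.0421). FGF23, known as a hormone of phosphate balance, was at 14.3, 10.7 and 11.2 TPM in the IPs, against 3.92 TPM in the input (log2 fold change 1.95, edgeR adjusted p = 0.047). FGF18, a secreted ligand of the FGF8 subfamily, was at 8.66, 9.48 and 6.99 TPM against 2.13 TPM and did not pass (log2 fold change 2.31, edgeR adjusted p = 0.0661). In the IPs the 3 ligand genes lay between 6.87 and 14.3 TPM, well below FGFBP3, which lay between 291 and 323 TPM.

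Among the 24 listed genes for FGF binding and heparan sulfate 6 were identified, with FGFBP3 higher and 3 lower. Beside these counts, 29.3% of all identified genes were called higher and 27.0% lower, and 2.31% and 1.49% of all genes and transcripts tested. SULF1, an extracellular sulfatase that trims heparan sulfate, was at 13.7, 13.2 and 12.8 TPM in the IPs, against 50.5 TPM in the input (log2 fold change -1.64, edgeR adjusted p = 0.0224). EXT2, a subunit of the polymerase that builds heparan sulfate chains, had a log2 fold change of -1.45 (edgeR adjusted p = 0.0241), and FLRT3, a membrane protein that binds FGF receptors, one of -0.90 (edgeR adjusted p = 0.0423). The core proteins SDC3 and GPC6 had log2 fold changes of -1.03 and -0.93 and did not pass (edgeR adjusted p = 0.0797 and 0.18). FGFBP3 was thus the 1 gene of these 6 with IPs above the input.

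Of 16 listed transducers 1 was identified. It was called lower, as were 27.0% of all identified genes and 1.49% of all genes and transcripts tested. PLCG1, the phospholipase that FGF receptors recruit, was at 9.93, 6.51 and 6.19 TPM in the IPs, against 32.3 TPM in the input (log2 fold change -1.98, edgeR adjusted p = 0.0472).

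**Figure D3:**
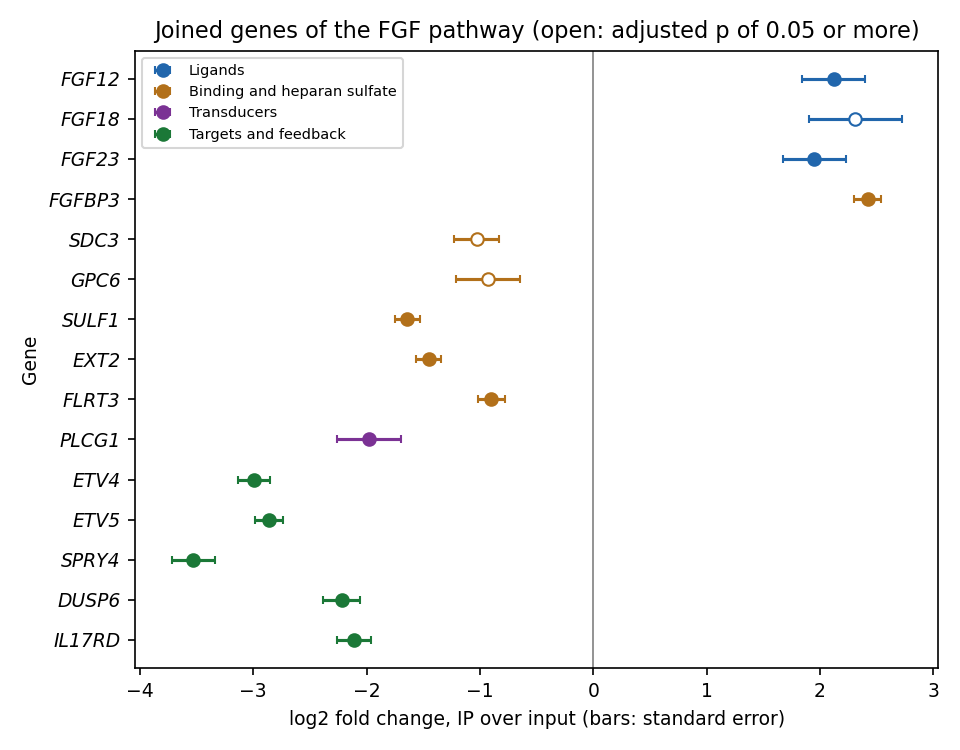
Log2 fold change (IP over input, 3 IPs and 1 input) of the 15 identified genes of the FGF pathway list, coloured by role. Bars are the standard error derived from edgeR's test and open symbols mark an adjusted p of 0.05 or more. The 5 targets and feedback genes lie between -3.53 and -2.11, and the 3 ligand genes and FGFBP3 lie between 1.95 and 2.42.

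Markers of the cells in the cultures moved between IP and input as well. Only markers among the rows of the authors' table with the smallest p could be identified. The lists were also chosen with earlier results of these data known, so the counts are a description and not independent evidence. Of all identified genes 29.3% were called higher and 27.0% lower, and of all genes and transcripts tested 2.31% and 1.49%. All 8 listed genes of the ATOH1 lineage were identified, with 7 higher, and their summed level was 1018 to 1529 TPM in the IPs, against 49.7 TPM in the input. Most of the sum in the IPs was HES6, at 1352, 980 and 837 TPM. In the input HES6 was at 22.5 TPM and MEIS2 at 23.55 TPM. Of 9 mesenchymal markers COL1A1 and DCN were identified, with summed levels of 228 to 265 TPM in the IPs, against 850.0 TPM in the input, and COL1A1 was lower (log2 fold change -1.46, edgeR adjusted p = 0.029). Of 10 markers of neural progenitors and radial glia 3 were identified, with SOX2 higher at 3.49, SOX9 lower at -1.81 and FABP7 not passing at 1.75. All 5 young neuron markers were higher, at 1004 to 1124 TPM summed in the IPs, against 323 TPM for the input. WNT1, the 1 identified gene of 7 for the isthmus and anterior hindbrain, was at 27.9 to 34.9 TPM in the IPs, against 0.209 TPM in the input, and the 5 endothelial markers were not analysed here. ADGRL4, an adhesion receptor gene known from endothelium, stands outside these lists and is named because its levels ran like those of SPRY4. It averaged 22.4 TPM in the IPs, against 294 TPM in the input, at a log2 fold change of -3.38. Other endothelial genes outside the lists are not reported here. The part of these cell types in the levels of the 5 genes was not tested.

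The identified genes outside the pathway list whose levels ran most like each gene were found by the distance between log2(TPM + 0.1) values, centred over the 4 libraries. Nearest to DUSP6 were the axon guidance receptor genes ROBO1 (distance 0.078) and EPHB3 (0.143), then CDH6, EMC1 and C1QTNF4. ETV4 was nearest to HAPLN1 (0.179), a link protein of the extracellular matrix, followed by ITGA1, EGFLAM, ALCAM and ECM1. ETV5 lay nearest to TNFRSF11B (0.137), AHR, MMP16, ALCAM and ITGA1, so the adhesion genes ALCAM and ITGA1 stood in the lists of both ETS factors. For SPRY4 the nearest genes were MAMDC2 (0.261), ADGRL4, THBS2, CHODL and COL9A1, and for FGFBP3 they were S1PR5 (0.098), C5orf38, TTC32, TMEM265 and HIST3H2A. These distances rest on 4 libraries, 3 of them IPs.

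The calls depend on having all 3 IPs. Without IP replicate 1, 2 or 3 the log2 fold changes stayed between -3.06 and -2.96 for ETV4, -2.89 and -2.84 for ETV5, -3.65 and -3.47 for SPRY4, -2.33 and -2.16 for DUSP6 and 2.41 and 2.42 for FGFBP3, but no gene passed edgeR's test (adjusted p from 0.106 to 0.191). With limma-voom the adjusted p of the 5 genes lay between 0.0552 and 0.0626. The single input has no spread of its own and is assumed to vary like the IPs, and an exact permutation test of 3 libraries against 1 cannot go below a one-sided p of 0.25.

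**Figure D4:**
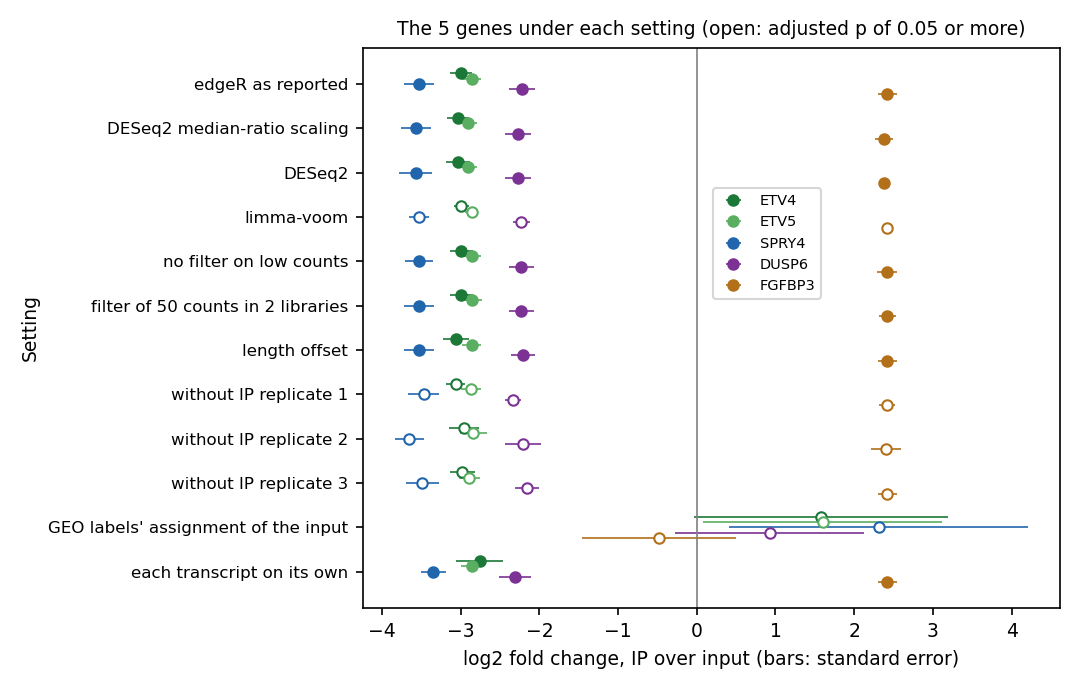
Log2 fold change (IP over input) of the 5 genes under each setting, with bars for the standard error and open symbols for an adjusted p of 0.05 or more. FGFBP3 stays between 2.38 and 2.42 and SPRY4 between -3.65 and -3.35, and both change sign only where the labels set the input, to -0.48 and 2.31.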

How the data were processed

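TRAP RNA was amplified with SMART-Seq v4, made into Nextera XT libraries and sequenced as 75 bp single reads. The authors quantified each library with Salmon 0.8.2 against UCSC hg19 transcripts, and the deposited values are estimated counts, not normalized, of 69548 transcripts. The authors also deposited Salmon's TPM for each transcript, which is scaled to transcript length and library. They summarised transcripts to genes with tximport and tested genes with DESeq2 1.20.0.

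The files hold no gene names. Runs of up to 20 neighbouring transcripts were joined to a gene of the authors' table where their sum met its mean count to within 2% and its log2 fold change to within 1e-05. The fold change column served only for this. The rows at hand are those with the smallest p, so genes outside them were not analysed here. Of 1646 joined genes, 470 rest on 1 transcript.

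Joined genes were summed, other transcripts kept on their own and estimated counts rounded. Fits were made in R 4.3.3 by edgeR 4.0.16, with TMM scaling, a minimum count of 10, the quasi-likelihood test of 3 IPs against 1 input and Benjamini-Hochberg adjustment over 43824 genes and transcripts at 0.05. This test gives no standard error, so the one printed is the absolute log2 fold change divided by the square root of the test's F statistic. Also tried were DESeq2 1.42.0, its scaling, limma-voom 3.58.1, other filters, a length offset, left-out IPs, the labels' input and single transcripts. Members, lists and the rule for named genes (the 5 genes, all identified genes of the pathway list, ATOH1 and the 5 genes most like each) were chosen with earlier results of these data known. The pathway list as first drawn up held 1 more gene, which is not reported here. Table columns of fold changes and p-values are not reported.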

Additional observations from a re-analysis of the deposited data

How the results depend on the processing

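All 5 genes kept their direction under the other tools, scalings, filters, the length offset, left-out IPs and, in the fit of single transcripts, for the most counted transcript of each gene, and turned with the labels' assignment of the input, to 1.58 for ETV4, 1.60 for ETV5, 2.31 for SPRY4, 0.93 for DUSP6 and -0.48 for FGFBP3. Over all genes and transcripts, where 1012 were higher and 653 lower, DESeq2 called 5758 higher and 4031 lower, and the filter of 50 counts in 2 libraries 1870 and 1149. The number called was 0 in each direction with limma-voom (before adjustment, 3793 higher and 6411 lower at p under 0.05), with the labels' assignment (1033 and 229) and in edgeR without IP replicate 1 (4207 and 3264), 2 (3577 and 3131) or 3 (4272 and 3674). In the pathway list the counts of 3 higher and 9 lower also became 0 under limma-voom, the labels' assignment and each left-out IP. Joining transcripts on mean count alone could not give a value, since many sums matched each gene. No paired analysis was possible because the single input shares a replicate number with only 1 IP. Among the other transcripts, uc001taz.3 of DUSP6 and uc010wii.2 of ETV4 had the opposite sign to their gene, at 4.10 and 9.84 (adjusted p = 0.172 and 0.409, edgeR), on 18.7 and 0.051 estimated reads in the input.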
